A study of Mus musculus with 6 samples.

Results

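Vascular mural cells, the pericytes and smooth muscle cells that wrap small vessels, were followed through 9 of their genes in mouse colon. The genes were Kcnj8 and Abcc9, which encode a potassium channel, the signalling regulators Rgs4 and Rgs5, the receptors Notch3 and Pdgfrb, the surface proteins Cspg4 and Mcam, and Higd1b. They were taken by symbol from the deposited table of 21899 genes, and each symbol matched 1 row. The 9 genes were chosen by their role in mural cells and selected on the KO against WT fold changes and calls of these same 6 libraries, with Kcnj8 among those calls, so their levels and fold changes are given below as a description, without a test. The libraries came from colon of Adamts4 knockout mice (KO, n = 3) and of wild-type mice (WT, n = 3). Both groups had been given 2.5% dextran sodium sulfate (DSS), a polysaccharide that injures the colonic lining, for 7 days. Untreated colon was not analysed here, and the knockout allele, strain, sex and age are not given in the labels used here. ADAMTS4 is a secreted protease that cleaves large proteoglycans. The libraries are numbered within each genotype, and the labels do not say that each came from a separate animal.

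The channel of Kcnj8 and Abcc9 is the vascular form of the ATP-sensitive potassium channel (K-ATP). Kcnj8 encodes the pore subunit Kir6.1, a potassium inward rectifier, and Abcc9 the regulatory subunit SUR2, an ABC protein that senses nucleotides and binds channel-opening drugs. When cellular ATP is low the channel opens, the cell hyperpolarises, less calcium enters and the vessel relaxes. Mural cells gather on vessels in response to PDGF-BB from the endothelium, which acts on the receptor of Pdgfrb, and Notch3 receives Notch signals from the same endothelium.

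Kcnj8 and Abcc9 are neighbours. On GRCm38 Kcnj8 (ENSMUSG00000030247) lies on the minus strand of chromosome 6 at 142564837 to 142571614, and Abcc9 (ENSMUSG00000030249) on the same strand at 142587862 to 142702315, with 16247 bases between them in the GENCODE M21 annotation. Rgs4 (ENSMUSG00000038530) and Rgs5 (ENSMUSG00000026678) form another pair, on chromosome 1 at 169741477 to 169747642 (minus strand) and 169655501 to 169695813 (plus strand), 45663 bases apart. Starts used for the sequences are those of RefSeq. That of Abcc9 lies inside its GENCODE M21 span given above, so the last bases shown for it fall within that span. The 250 bases before the start of each of these 4 genes are shown because each pair shares a neighbourhood. They are given 5′ to 3′ on the gene's strand, from RefSeq on GRCm38.p6, and span chr6:142571615-142571864, chr6:142702275-142702524, chr1:169747643-169747892 and chr1:169655251-169655500 in the order below. Capitals mark a match to 1 of the 5 motifs searched on both strands, the TATA box (TATAAA), the GC box (GGGCGG), the binding motif of AP-1 (TGANTCA), the core letters that the Notch partner RBPJ binds (TGGGAA) and the CArG box, none of which overlapped another match.
Kcnj8: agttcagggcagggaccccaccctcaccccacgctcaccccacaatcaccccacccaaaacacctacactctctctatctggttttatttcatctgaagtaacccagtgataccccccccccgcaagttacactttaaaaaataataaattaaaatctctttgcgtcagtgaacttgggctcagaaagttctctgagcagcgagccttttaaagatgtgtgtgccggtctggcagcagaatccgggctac
Abcc9: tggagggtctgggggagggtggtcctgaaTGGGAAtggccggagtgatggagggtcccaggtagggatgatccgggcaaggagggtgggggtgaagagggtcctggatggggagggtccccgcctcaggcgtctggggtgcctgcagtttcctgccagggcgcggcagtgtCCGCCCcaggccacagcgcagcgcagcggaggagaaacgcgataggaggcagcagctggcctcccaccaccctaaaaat
Rgs4: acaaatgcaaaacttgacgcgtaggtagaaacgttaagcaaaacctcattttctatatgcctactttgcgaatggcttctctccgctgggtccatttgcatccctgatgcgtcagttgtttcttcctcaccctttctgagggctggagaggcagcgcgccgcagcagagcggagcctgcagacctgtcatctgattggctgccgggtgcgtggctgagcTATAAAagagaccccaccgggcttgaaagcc
Rgs5: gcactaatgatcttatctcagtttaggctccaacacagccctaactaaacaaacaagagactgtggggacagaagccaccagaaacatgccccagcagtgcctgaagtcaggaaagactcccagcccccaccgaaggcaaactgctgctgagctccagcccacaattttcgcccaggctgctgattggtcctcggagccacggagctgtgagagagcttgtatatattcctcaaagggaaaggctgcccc

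Rgs4 had TATAAA from base -31 to base -26, counted back from the start, a motif held by 12.4% of 32851 RefSeq promoter windows of the same length. Abcc9 had GGGCGG on the opposite strand at -79 to -74, a motif in 32.7% of windows, and TGGGAA at -221 to -216, in 21.6%. Kcnj8 and Rgs5 held none of the 5 motifs in these windows. TGANTCA, the AP-1 motif, and the CArG box, bound by serum response factor in smooth muscle genes, occurred in 6.75% and 1.47% of all windows and in none of the 7 members present in the promoter table. GGGCGG was also present before Notch3, Cspg4 and Mcam.

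The libraries held 15786214 to 22932125 counts, and their mural genes lay among those of many other cells. Adamts4 had no count in any KO library, against 900, 992 and 997 counts across the WT libraries. The library KO 3 lay away from the remaining 5, with fibroblast and endothelial markers low in it, and values without it are given beside the mural genes tested and beside several of the other results. Of the 9 genes, 8 passed the filter on low counts and Higd1b did not. The colon as a whole expresses the commonly used mural markers unevenly. Higd1b, which marks pericytes in several mouse organs, had 1, 5 and 5 counts in KO 1, KO 2 and KO 3, against 2, 4 and 1 in WT 1, WT 2 and WT 3. Pooled per group this was 0.199 CPM in KO (95% exact interval 0.0994 to 0.356) and 0.117 CPM in WT (0.0470 to 0.241), where the intervals cover counting error only and overlap. A genotype difference in Higd1b was not detectable at this depth. The pericyte marker genes Ndufa4l2 and Cox4i2 were also low, with 7 to 47 and 15 to 28 counts in KO libraries, against 35 to 51 and 11 to 23 in WT libraries. Several of the 9 genes are not confined to pericytes, since fibroblasts carry Pdgfrb and endothelium carries Mcam, so the group is called mural genes here rather than a measure of pericyte number.

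**Figure D1:**
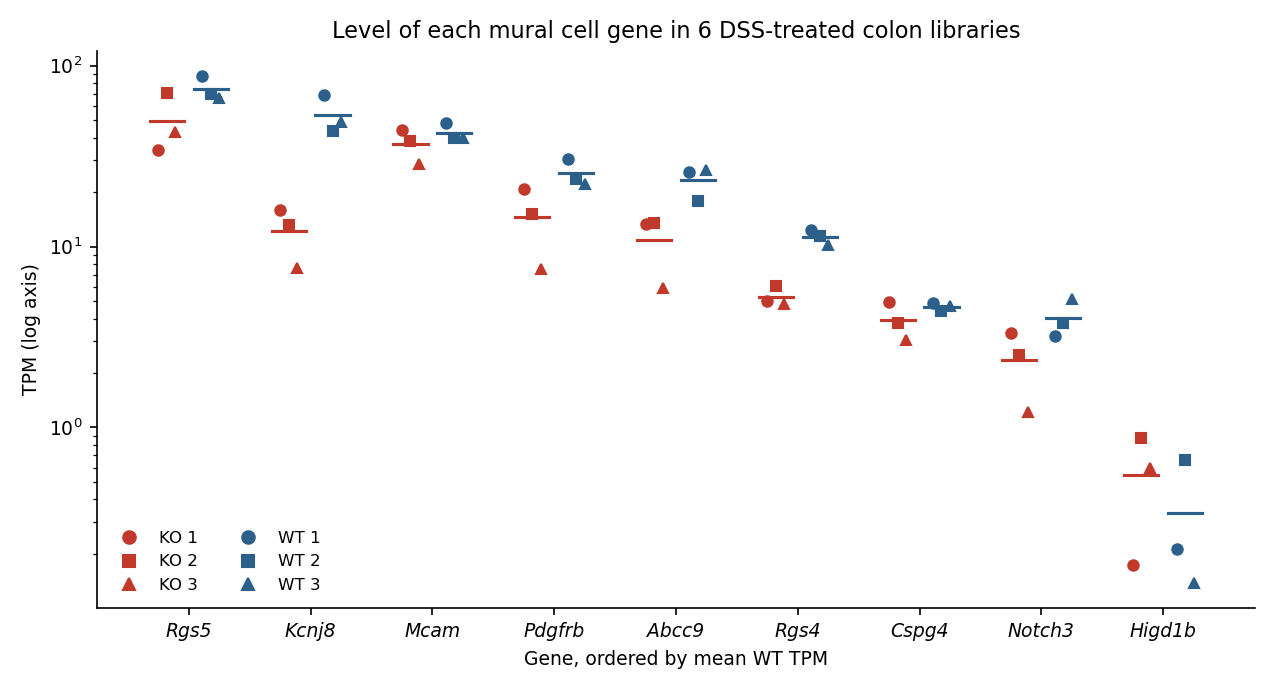
Levels of the 9 mural genes in TPM (log axis), with 1 point per library, KO left of WT, and a line at the mean of 3 libraries. All KO points of Kcnj8, 7.59 to 15.9 TPM, lie below all WT points, 43.7 to 68.4 TPM, while the points of Mcam, Cspg4, Notch3, Rgs5 and Higd1b overlap between genotypes.

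Levels are compared between genes in TPM, the authors' values per transcript length. In WT colon Rgs5, which speeds the shut-off of G protein signals in mural cells, stood first with 74.4 ± 11.4 TPM (SD, n = 3 here and below), followed by Kcnj8 with 53.6 ± 13.1 and Mcam with 42.6 ± 4.80. Pdgfrb had 25.4 ± 4.48, Abcc9 23.3 ± 4.78, Rgs4 11.3 ± 1.08, Cspg4 4.65 ± 0.212 and Notch3 4.04 ± 0.977 TPM. Among these neighbours in the WT order, Rgs5, Kcnj8 and Mcam overlapped in turn, as did Pdgfrb and Abcc9, and Cspg4 and Notch3. The library values of Mcam lay above all of Pdgfrb, those of Abcc9 above all of Rgs4, and those of Rgs4 above all of Cspg4. In KO colon the order was Rgs5 (49.3 ± 19.3), Mcam (36.9 ± 7.84), Pdgfrb (14.5 ± 6.72), Kcnj8 (12.2 ± 4.23), Abcc9 (10.9 ± 4.32), Rgs4 (5.27 ± 0.678), Cspg4 (3.91 ± 0.960) and Notch3 (2.36 ± 1.07 TPM). Kcnj8 thus had rank 4 in KO colon and rank 2 in WT colon, and every other gene of the 9 kept its place or moved up by 1 rank. In KO colon the library values of Mcam lay above all of Pdgfrb, and those of Notch3 above all of Higd1b, while the other neighbours overlapped.

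The pore subunit gene Kcnj8 showed the widest gap of the 9 between the genotypes. It had 15.9, 13.1 and 7.59 TPM in KO 1, KO 2 and KO 3, against 68.4, 43.7 and 48.5 TPM in WT 1, WT 2 and WT 3. The highest KO library lay well below the lowest WT library, and the KO mean was 22.8% of the WT mean. The raw counts were 443, 280 and 221 in KO, against 2202, 1162 and 1204 in WT. The log2 fold change, KO minus WT, was -2.09 ± 0.28 (SE), and -1.87 without KO 3. The regulatory subunit gene Abcc9 had 13.3, 13.5 and 5.92 TPM in KO libraries, against 25.9, 17.8 and 26.3 TPM in WT libraries. Its groups did not overlap, with KO 3 the lowest library and WT 2 the lowest WT library. Its log2 fold change was -1.01 ± 0.29, and -0.75 without KO 3. GENCODE M21 lists an antisense gene over 11868 bases of Abcc9, and others over 21024 bases of Notch3 and 17 bases of Mcam. Whether counting used strand is not given in the sources used here, so reads from these antisense genes cannot be told apart from those of the 3 mural genes.

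Within a library, the ratio of Kcnj8 to Abcc9 TPM was 1.19, 0.970 and 1.28 in KO 1, KO 2 and KO 3, against 2.65, 2.45 and 1.84 in WT 1, WT 2 and WT 3. The pore subunit transcript was thus at about the level of its partner in KO colon (mean ratio 1.15 ± 0.161) and above it in WT colon (2.31 ± 0.419). The ratio of Kcnj8 to Pdgfrb was 0.760, 0.870 and 1.01 in KO, against 2.24, 1.85 and 2.19 in WT. The ratio of Kcnj8 to the endothelial gene Pecam1 averaged 0.452 ± 0.0724 in KO and 0.954 ± 0.296 in WT. None of these ratios overlapped between the genotypes, so Kcnj8 was low also relative to other vessel genes of the same library. Abcc9 relative to Pdgfrb did overlap, with 0.773 ± 0.131 in KO and 0.931 ± 0.229 in WT. On the log2 CPM scale, with each gene centred on its mean over the 6 libraries, Kcnj8 lay 0.52, 0.78 and 0.84 below the mean of the other 7 tested genes in KO 1, KO 2 and KO 3, against 0.98, 0.57 and 0.59 above it in WT 1, WT 2 and WT 3. The ratios come from the same contrast as the choice of genes and carry no test.

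**Figure D2:**
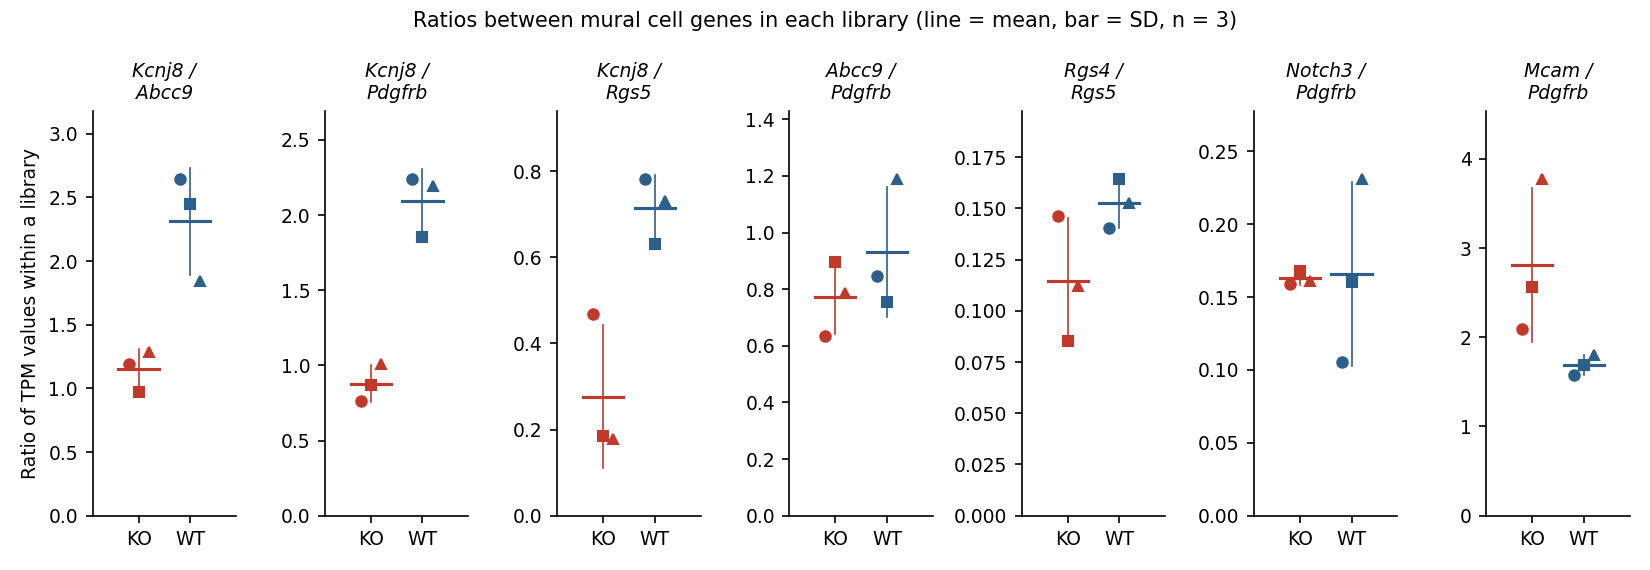
Ratios of TPM values between mural genes within each library, KO left of WT, with 1 point per library, a line at the mean and a bar of 1 SD (n = 3); each panel has its own axis from 0. The ratios with Kcnj8 on top are separated, for example 0.970 to 1.28 in KO against 1.84 to 2.65 in WT over Abcc9, and those of Abcc9, Rgs4 and Notch3 overlap.

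Rgs4 and Rgs5 encode small proteins that speed GTP hydrolysis by G alpha subunits and so shorten responses to vasoconstrictors. Rgs4 had 4.98, 6.04 and 4.79 TPM in KO libraries, against 12.3, 11.4 and 10.1 TPM in WT libraries. These groups were tight and far apart, and KO 3 was close to KO 1. The log2 fold change was -1.05 ± 0.18, and -1.04 without KO 3. Rgs5 had 34.0, 71.0 and 42.8 TPM in KO 1, KO 2 and KO 3, against 87.5, 69.2 and 66.5 TPM in WT 1, WT 2 and WT 3. KO 2 lay among the WT libraries, so the groups overlapped, with a log2 fold change of -0.56 ± 0.25. It was -0.36 without KO 1, -0.84 without KO 2 and -0.52 without KO 3. The ratio of Rgs4 to Rgs5 was 0.114 ± 0.0307 in KO and 0.153 ± 0.0119 in WT and overlapped as well.

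Rgs4 and Rgs5 lie 1503 and 1555 kb from Adamts4 (chromosome 1, 171250421 to 171260637), the targeted gene. DNA that flanks a targeted allele often stays with it during breeding, so whether these 2 genes differ because of the protease or because of linked sequence cannot be told apart with these groups. Of the 60 genes tested within 2 Mb of Adamts4, Rgs4 and Rgs5 included and Adamts4 left out, 35 had a log2 fold change below 0. Over all 14553 genes tested 45.8% did. The median was -0.10 within this window and 0.03 over all genes. The window also holds Fc receptor and SLAM family genes of leukocytes, such as Fcgr4 (-1.55), Fcgr3 (-1.35), Cd48 (-0.82) and Slamf6 (-0.30). The leukocyte markers given below had a median of -0.85. The part of leukocyte genes in the count for this window was not tested. The remaining mural genes lie on other chromosomes.

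Both receptor genes had their lowest value in KO 3. Pdgfrb, the PDGF-BB receptor that holds pericytes on vessels, had 20.9, 15.0 and 7.52 TPM in KO 1, KO 2 and KO 3, against 30.5, 23.6 and 22.1 TPM in WT 1, WT 2 and WT 3. The groups did not overlap, although KO 1 came close to WT 3. Its log2 fold change was -0.77 ± 0.31, and -0.49 without KO 3. Notch3, the mural Notch receptor, had 3.33, 2.53 and 1.21 TPM in KO libraries, against 3.21, 3.78 and 5.12 TPM in WT libraries. KO 1 lay above WT 1, so the groups overlapped (log2 fold change -0.74 ± 0.34, and -0.46 without KO 3). The ratio of Notch3 to Pdgfrb was alike on average, at 0.163 ± 0.00473 in KO and 0.166 ± 0.0631 in WT, with a far wider spread in WT.

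The surface protein genes had the log2 fold changes nearest to 0. Mcam, the adhesion molecule CD146 of vessel walls, had 43.8, 38.5 and 28.4 TPM in KO libraries, against 48.2, 39.8 and 39.9 TPM in WT libraries (log2 fold change -0.13 ± 0.17, and -0.02 without KO 3). Cspg4, the proteoglycan NG2 of pericytes, had 4.93, 3.78 and 3.03 TPM in KO libraries, against 4.85, 4.43 and 4.66 TPM in WT libraries (-0.20 ± 0.20, and -0.09 without KO 3). The groups overlapped in both genes: KO 1 lay within the WT range of Mcam and above every WT library for Cspg4, and KO 3 was the lowest library for each. In both, the log2 fold change was about as large as its standard error or smaller. The ratio of Mcam to Pdgfrb was 2.10, 2.56 and 3.78 in KO 1, KO 2 and KO 3, against 1.58, 1.69 and 1.80 in WT 1, WT 2 and WT 3, and thus higher in each KO library.

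All 8 tested mural genes had a log2 fold change below 0, as did 45.8% of all genes tested. Their median was -0.76, against 0.03 over all genes, and -0.51 without KO 3. The KO and WT values did not overlap in 4 of the 8 (Kcnj8, Abcc9, Rgs4 and Pdgfrb), where 10.2% of all tested genes had every KO library below every WT library and 9.35% every KO library above. The quasi-likelihood test of edgeR over all genes called 1 of the 8, Kcnj8, lower at an adjusted p below 0.05 (0.151% of all genes), and DESeq2 called 3, Kcnj8, Abcc9 and Rgs4 (2.96%). Because the genes were picked with this contrast known, nothing is read from these counts. The call of Kcnj8 was lost in edgeR when any library other than KO 1 was left out and with median-ratio factors. The same 3 genes were called in DESeq2 without KO 3.

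**Figure D3:**
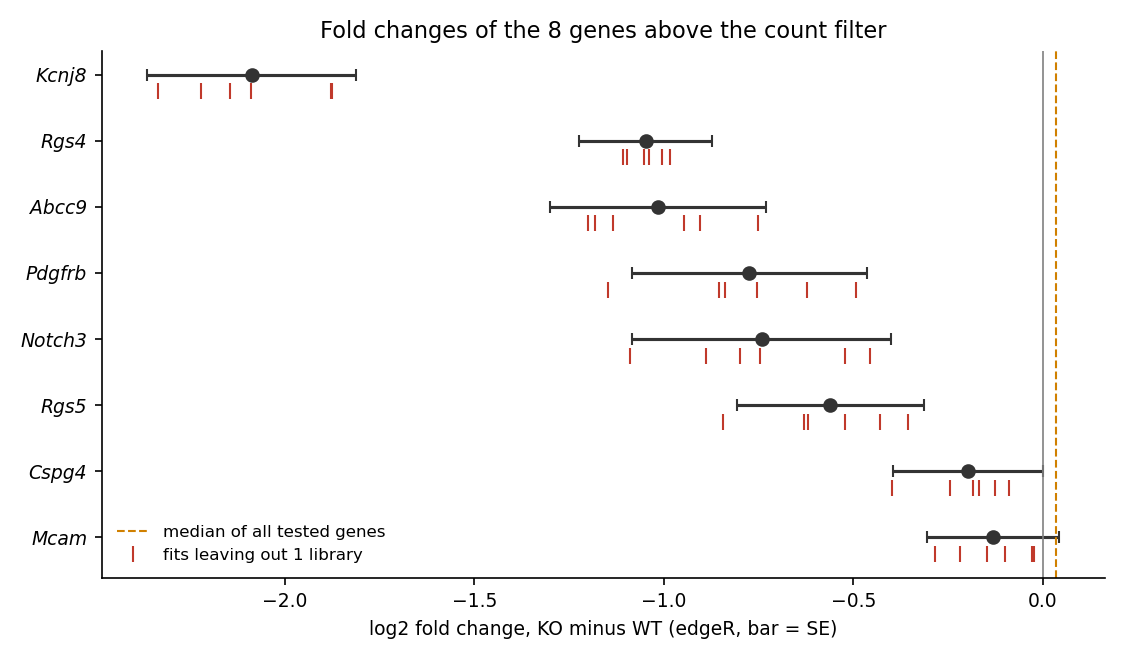
Log2 fold changes, KO minus WT, of the 8 mural genes above the count filter, with bars of 1 SE and red ticks for the 6 fits that leave out 1 library each. The points run from -2.09 for Kcnj8 to -0.13 for Mcam, and no tick crosses 0; the dashed line is the median of all tested genes, 0.03.

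In tissue RNA, fewer mural cells and less RNA per mural cell cannot be told apart. Markers of other cell types are therefore given beside the mural genes. The 15 endothelial markers, all tested, had a median log2 fold change of -0.79, and -0.46 without KO 3. Their summed level was 155 to 475 CPM in KO libraries, against 549 to 624 CPM in WT libraries. The 7 leukocyte markers had a median of -0.85 (-0.91 without KO 3) and sums of 105 to 172 CPM in KO, against 263 to 307 CPM in WT. The sums of both lists lay lower in every KO library than in any WT library. Within the leukocyte list 3 of the 7 genes did so singly, as did 10.2% of all tested genes. Ptprc, Cd3e, Cd79a and Csf1r overlapped between genotypes, at -0.19 ± 0.30, -0.44 ± 0.41, -0.48 ± 0.64 and -0.85 ± 0.49. Cd79a was highest in KO 3, with 35.6 CPM, and was called lower in DESeq2 without that library. The 10 fibroblast markers overlapped, with 852 to 4901 CPM in KO and 2777 to 5301 CPM in WT, KO 3 being the low library. The 12 smooth muscle contractile genes, which visceral muscle supplies in large amount, went the other way (median 0.50). Their sums did not overlap, with 4867 to 5962 CPM in KO and 2908 to 4626 CPM in WT. Taken singly, 4 of the 12 had every KO library above every WT library, as did 9.35% of all tested genes. The 8 epithelial markers summed to 10160 to 12663 CPM in KO and 9237 to 10631 CPM in WT. No gene of these 5 lists was at 0 in any library. The part of these cells in the mural gene levels was not tested.

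**Figure D4:**
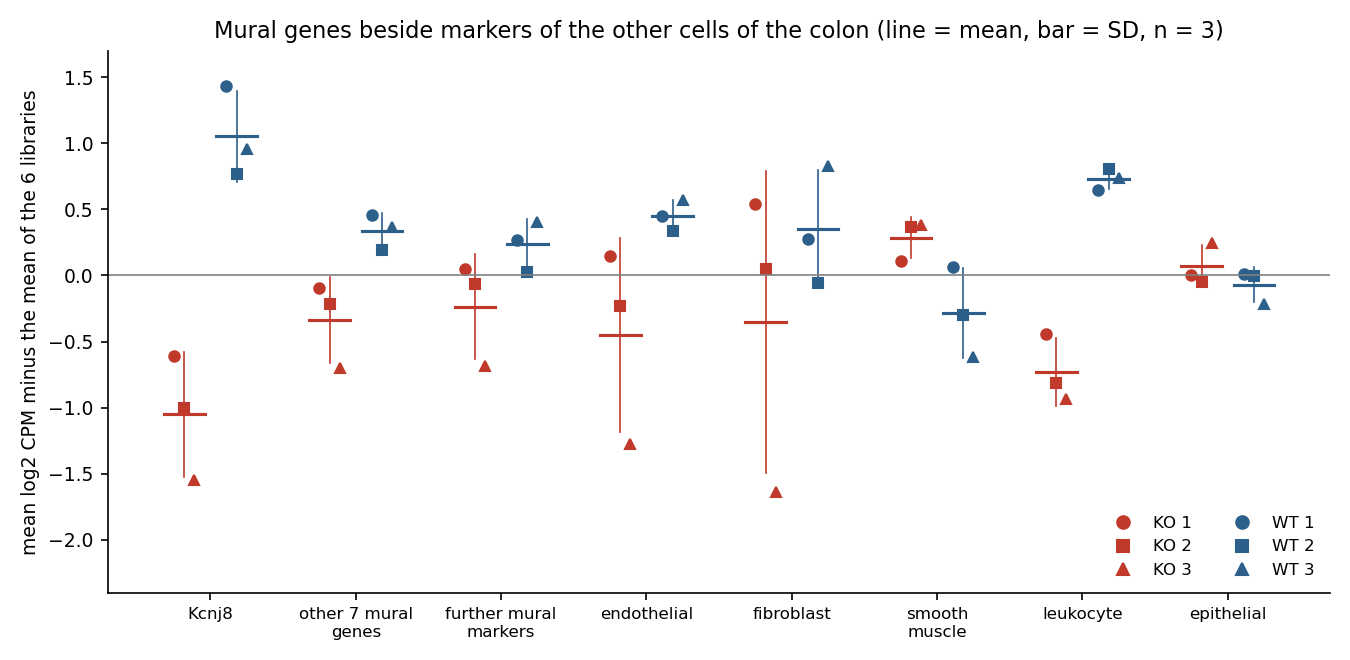
Mean log2 CPM of Kcnj8, of the other 7 tested mural genes and of marker lists, minus the mean of the 6 libraries, KO left of WT, with 1 point per library, a line at the mean and a bar of 1 SD (n = 3). Kcnj8 ran from -1.54 to -0.61 in KO against 0.76 to 1.43 in WT, a wider gap than that of the other mural genes, and smooth muscle genes were higher in KO than in WT on average.

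A set of 131 related genes in 12 lists, none of them among the 9, was tested in the same fit. Of the 116 tested, 82 had a log2 fold change below 0, where 45.8% of all genes did. That share also stands beside the counts below 0 given for each list. Among the 116, edgeR called 0 lower and 0 higher, where it called 0.151% and 0.00687% of all genes. At an unadjusted p below 0.05 there were 22 lower and 8 higher (7.85% and 5.17% of all genes), and DESeq2 called 9 lower and 4 higher (2.96% and 0.804%). These shares also stand beside the counts of passing genes given for each list. Without KO 3, DESeq2 called 8 lower and 3 higher. The lists overlap and the genes of 1 cell type move together, so these counts are not independent. The lists were also chosen with earlier results of these data known, so nothing is read from the counts beside the shares.

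The other inward rectifiers and the other K-ATP channel were at low levels. Kcnj11 and Abcc8, the pore and regulatory subunits of the channel of pancreatic beta cells and some enteroendocrine cells, had 0.732 ± 0.398 and 2.19 ± 0.182 TPM in KO, against 0.626 ± 0.111 and 2.95 ± 1.40 TPM in WT. Their log2 fold changes were 0.32 ± 0.49 and -0.43 ± 0.28 (edgeR adjusted p = 0.825 and 0.565), and neither passed in DESeq2. Of 8 tested genes among the 15 listed, 7 lay below 0 (median -0.44) and 1 passed in DESeq2. That gene was Kcnj15, the inward rectifier Kir4.2, with 0.62, 0.68 and 0.81 CPM in KO libraries, against 3.68, 1.83 and 3.42 CPM in WT libraries. The groups were apart, with few counts behind them (11 to 15 in KO libraries, 36 to 86 in WT libraries), at -2.08 ± 0.39 (edgeR adjusted p = 0.0849, DESeq2 adjusted p = 0.00231). Kcnj12 and Kcnj2, rectifiers of the Kir2 branch that mural and endothelial cells use, stood at -0.98 ± 0.37 and -0.98 ± 0.45 (edgeR adjusted p = 0.336 and 0.403).

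Among 6 tested genes of the R4 group of RGS proteins, to which Rgs4 and Rgs5 belong, 5 lay below 0 (median -0.28). Rgs16, an RGS gene induced in activated lymphocytes, had 5.96, 5.89 and 3.60 CPM in KO libraries, against 9.15, 11.2 and 9.43 CPM in WT libraries. Its groups did not overlap, and it passed in DESeq2 only (-0.95 ± 0.26, edgeR adjusted p = 0.200, DESeq2 adjusted p = 0.0370) and not in DESeq2 without KO 3. Rgs2, which limits vasoconstrictor signals in smooth muscle, was at -0.37 ± 0.24 (edgeR adjusted p = 0.561), and Rgs8 at 0.76 ± 0.37 (0.424).

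No PDGF gene of the 5 listed passed in edgeR or DESeq2. Pdgfb, whose product recruits pericytes, had 9.62 ± 1.52 CPM in KO and 12.4 ± 1.67 CPM in WT (-0.37 ± 0.21, edgeR adjusted p = 0.489), and Pdgfd, a further ligand of the same receptor, -0.21 ± 0.34 (0.832). Pdgfra, the receptor of fibroblasts, was at -0.97 ± 0.40 (0.362), and -0.61 without KO 3, and Pdgfc at -0.51 ± 0.20 (0.344). Every KO library lay below every WT library for Pdgfb, Pdgfc and Pdgfra, as for 10.2% of all tested genes. The Notch ligands Jag1 and Dll4 were at -0.20 ± 0.19 and 0.04 ± 0.24 (0.710 and 0.962). Heyl, a Notch target of mural cells, was at 0.02 ± 0.28 (0.985); the signs of Dll4 and Heyl turn under some alternatives. Of 13 Notch genes tested 7 lay below 0, and 1 passed in DESeq2. This was Hes1, a Notch target of epithelial and many other cells, with 46.8, 44.4 and 51.1 CPM in KO libraries, against 33.2, 28.7 and 28.7 CPM in WT libraries. It was higher in every KO library, at 0.65 ± 0.14 (edgeR adjusted p = 0.128, DESeq2 adjusted p = 0.00825). Nrarp and Notch2 stood at 0.54 ± 0.23 and -0.51 ± 0.24 (edgeR adjusted p = 0.365 and 0.419).

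Of 17 tested among 18 mural markers, 14 lay below 0, with a median of -0.25 (-0.15 without KO 3), and 1 passed in DESeq2. This was Angpt1, the mural ligand that steadies endothelium through the receptor Tie2, with 0.82, 0.81 and 0.27 CPM in KO libraries, against 4.32, 1.43 and 2.53 CPM in WT libraries (-2.12 ± 0.56, edgeR adjusted p = 0.190, DESeq2 adjusted p = 0.0230). It did not pass in DESeq2 without KO 3. Ednra, the endothelin receptor of mural cells, was at -1.21 ± 0.43 and the metalloreductase gene Steap4 at -1.16 ± 0.43 (edgeR adjusted p = 0.310 and 0.330). Angpt1, Ednra and Steap4 had the smallest p of their list, and KO 3 was the lowest library for each. Other markers lay near 0, such as Aoc3 at -0.10 ± 0.15. The 3 above 0 included Cox4i2 at 0.45 ± 0.46 and Postn at 0.26 ± 0.41. Among endothelial markers 15 of 15 lay below 0 and 3 passed in DESeq2, with and without KO 3. With KO 3, DESeq2 called 2.96% of all genes lower. Angpt2, the endothelial antagonist of Angpt1, had 3.08, 2.48 and 2.63 CPM in KO libraries, against 10.1, 7.39 and 5.67 CPM in WT libraries (-1.50 ± 0.29, edgeR adjusted p = 0.0912, DESeq2 adjusted p = 0.000664). Pecam1 and Esam, adhesion molecules of endothelial junctions, were at -0.99 ± 0.29 and -1.08 ± 0.31 (edgeR adjusted p = 0.220 and 0.216, DESeq2 adjusted p = 0.0330 and 0.0279).

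Among 16 tested vasoactive receptors and signalling genes of the vessel wall, 15 lay below 0 (median -0.48), and none passed in edgeR or DESeq2, with 4 at an unadjusted edgeR p below 0.05. The angiotensin receptor gene Agtr1a was at -1.16 ± 0.33 and the natriuretic peptide receptor gene Npr2 at -0.65 ± 0.27 (edgeR adjusted p = 0.207 and 0.367). In contrast, all 12 smooth muscle contractile genes lay above 0, and 3 passed in DESeq2, which called 0.804% of all genes higher. Actg2, the actin of visceral smooth muscle, had 477, 612 and 681 CPM in KO libraries, against 336, 244 and 196 CPM in WT libraries (1.19 ± 0.25, edgeR adjusted p = 0.116, DESeq2 adjusted p = 0.000162). Des, the muscle intermediate filament desmin, and Cnn1, calponin, were at 0.95 ± 0.24 and 0.73 ± 0.23 (edgeR adjusted p = 0.167 and 0.251, DESeq2 adjusted p = 0.00343 and 0.0411). Cnn1 did not pass in DESeq2 without KO 3. The log2 fold changes of the 8 tested mural genes and of the 12 contractile genes thus lay on opposite sides of 0. Vascular smooth muscle carries both, but visceral muscle supplies contractile RNA in large amount, so the vascular part cannot be told apart.

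Fibroblast, glial, epithelial and leukocyte genes gave the surroundings. Dcn, the fibroblast proteoglycan decorin, was at -1.17 ± 0.46 and Dpt at -0.67 ± 0.27 (edgeR adjusted p = 0.344 and 0.350), and at -0.77 and -0.40 without KO 3. These 2 were among the genes of smallest p in their list. The median of the 10 fibroblast markers was -0.42, and 0.004 without KO 3, where 5 of the 10 lay below 0. The enteric glia genes Gfap and S100b were at -0.76 ± 0.26 and 0.33 ± 0.41 (edgeR adjusted p = 0.293 and 0.771), and Gfap passed in DESeq2 without KO 3 but not with it. Epcam, Cdx2 and Krt8 of the epithelium were at 0.28 ± 0.16, 0.30 ± 0.25 and 0.19 ± 0.18 (0.517, 0.643 and 0.691). The calprotectin genes S100a8 and S100a9 of neutrophils and the integrin gene Itgam were at -3.22 ± 0.68, -2.78 ± 0.58 and -1.25 ± 0.41. Their edgeR adjusted p was 0.115, 0.115 and 0.261, and their DESeq2 adjusted p 0.00677, 3.52e-06 and 0.0362. Itgam did not pass in DESeq2 without KO 3.

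Genes whose profile over the 6 libraries was closest to that of Kcnj8 were looked for among 13462 genes, by the root mean square difference of centred log2 CPM. The closest were Cyp7b1, an oxysterol hydroxylase (difference 0.118), the interferon-induced membrane protein gene Ifitm1 (0.180), the nucleotidase gene Nt5c1a (0.184), Fpr2, a formyl peptide receptor of neutrophils (0.212), and Wfdc12 (0.221). Cyp7b1 had 2.26, 1.80 and 1.23 CPM in KO libraries, against 9.19, 5.09 and 6.40 CPM in WT libraries, the same order of libraries as for Kcnj8. Ifitm1 had 39.0, 27.1 and 16.5 CPM in KO libraries, against 126, 74.2 and 80.4 CPM in WT libraries. None of these 5 was a mural marker of the lists. The 9 mural genes themselves could not appear, since they were left out of the search, as were predicted genes, genes without a symbol and immunoglobulin segments. Genes close to the mean of the other 7 mural genes were Lix1l (0.0376), Vim, the intermediate filament vimentin of mesenchymal cells (0.0533), the Arf exchange factor gene Cyth3 (0.0692) and the junctional adhesion gene Jam3 (0.0701). Vim had 179, 166 and 109 CPM in KO libraries, against 269, 209 and 249 CPM in WT libraries. The nearest genes had log2 fold changes of -2.20 to -1.76 beside Kcnj8 and of -0.71 to -0.63 beside the other mural genes. The measure keeps the size of the genotype difference, so these ranges follow from the matching and do not set Kcnj8 apart. Likeness over 6 libraries of 2 genotypes rests largely on the genotype difference itself, and it is a description only.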

How the data were processed

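Per the labels' protocols, colon RNA was taken up in Trizol and made into libraries with a SMARTER kit for mRNA. GRCm38, mm10 and mm39 are named in the submitters' processing notes without a role. Aligner, counter, annotation release and use of strand are not given in those notes or the labels. Counts of reads per gene and library were used as the authors deposited them, and the authors' TPM values, scaled to 1 total per library, served to compare levels between genes. The deposited log2 fold changes, p-values and group means of the authors were not used.

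Differences were tested with edgeR 4.0.16 (glmQLFit and glmQLFTest, R 4.3.3) after TMM scaling and the default filter by group, which kept 14553 of 21899 genes, with Benjamini-Hochberg adjustment over all of them. CPM values are scaled by TMM factors, log2 CPM has a prior count of 2, and standard errors derive from the F statistic. DESeq2 1.42.0 was an alternative, and both were tested on simulated data. Positions are from GENCODE M21. Likeness used 7 genes beside Kcnj8, since Higd1b did not pass the filter. Named were the 9 members, Adamts4, fixed partners, the 3 genes of smallest p per list and the 5 genes most like each profile, of which some are not reported here. The members and lists were chosen with earlier results of these data known. The labels do not tie each library to its own animal, so a p-value reflects only how these libraries spread, which may be technical.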

Additional observations from a re-analysis of the deposited data

How the results depend on the processing

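Of the 8 tested mural genes, all kept a log2 fold change below 0 in each of the 12 alternatives, with Kcnj8 between -2.33 and -1.87 and Mcam between -0.28 and -0.02. None of these values moved by more than the pooled SD between libraries. The median over the 8 genes ran from -1.05 to -0.51 when 1 library was left out. Calls over all genes depended on the test: 1 higher and 22 lower in the main test became 0 and 9 with median-ratio factors, 38 lower with upper-quartile factors, 117 and 431 in DESeq2, 113 and 370 in DESeq2 without KO 3, and 3 and 66 with no count filter. Leaving out 1 library gave 0 to 2 higher and 1 to 29 lower in edgeR. Among the related genes, DESeq2 called 9 lower and 4 higher, and 8 and 3 without KO 3, which was chosen after seeing the data. The cause of these shifts was not tested. The replicate block gave 3 higher and 78 lower over all genes and 2 related genes lower, and Kcnj8 was called in it. Same-numbered libraries did not deviate together: correlations of deviations were -0.42, -0.15 and -0.43 for numbers 1, 2 and 3, and no library matched its own number best. Among named genes the sign turned for Dll4 (-0.12 without KO 1, -0.06 without WT 1 and -0.09 without WT 3), Heyl (-0.013 with upper-quartile factors, -0.11 without KO 2 and -0.12 without WT 1) and S100b (-0.17 without KO 3, also in DESeq2), none of which passed. Leaving out 1 library gave up to 0.28, 0.15 and 0.61 for these 3. Low counts limit Higd1b, Kcnj11, Kcnj15 and Angpt1, and, among others, Kcnj2, Kcnj12, Rgs8, Fpr2 and Wfdc12.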

Other observations

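The chromosome 1 segment that holds Rgs4, Rgs5 and Adamts4 had further genes past the threshold of DESeq2, named here after their values were seen. Within 2 Mb of Adamts4, 5 of 60 tested genes were called in DESeq2 and 0 in edgeR, 4 of them lower in KO, where DESeq2 called 2.96% of all genes lower. Besides Rgs4 they were the Fc receptor genes Fcgr4 (-1.55 ± 0.45, DESeq2 adjusted p = 0.0109) and Fcgr3 (-1.35 ± 0.45, 0.0365), which lie 0.221 and 0.185 Mb from Adamts4, the goblet cell lectin gene Itln1 (-3.70 ± 1.01, 0.0350), at 0.257 Mb, and the sterol enzyme gene Hsd17b7 (0.90 ± 0.23, 0.0191), at 1.28 Mb. The edgeR adjusted p of these 5 lay between 0.0683 and 0.273. The cause was not tested.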
